A study of Homo sapiens with 22 samples.

Results

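ATF4 and 9 genes that are known to be switched on through it were followed in Caco-2 cells exposed to mouse faecal water (FW). The 10 genes are ATF4, ATF3, DDIT3, DDIT4, TRIB3, CHAC1, ASNS, SESN2, STC2 and INHBE, out of 61487 genes in the count table. All 10 were among the 20373 genes that passed the filter on low counts (a count above 5 in at least 3 of 21 libraries). They were selected on the levels measured in these same libraries, so their levels, fold changes and calls are given here as a description and not as a test.

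Caco-2 is an established human colorectal adenocarcinoma line, used here undifferentiated and grown as 1 line without genetic modification. All cells were kept in DMEM with serum, antibiotic-antimycotic and non-essential amino acids, grown for 48 h and then exposed for 48 h with the treatment making up 10% of the medium. The treatment was PBS as the vehicle (PBS, n = 4), FW of control mice (FWctl, n = 7), FW of antibiotic-treated mice (FWatb, n = 7), or the antibiotic cocktail itself (ATB, n = 4). The cocktail held 1 g/L neomycin, 0.5 g/L vancomycin and 0.25 g/L meropenem in the drinking water of the mice. The study's methods do not state its final concentration on the cells. FW is the supernatant of faeces homogenised in PBS, and the study prepared FWatb from the same mice as FWctl after they had received the cocktail. The question put to the data was how the ATF4 genes differed between cells exposed to FW from mice with and without antibiotics, with PBS and ATB as the controls.

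The integrated stress response is a signalling route on which several kinds of cell stress converge. The kinases PERK (EIF2AK3), GCN2 (EIF2AK4), PKR (EIF2AK2) and HRI (EIF2AK1) sense endoplasmic reticulum stress, amino acid shortage, double-stranded RNA, and haem shortage or mitochondrial stress, respectively, and each phosphorylates the initiation factor eIF2alpha. General protein synthesis then slows while the ATF4 mRNA, held back by upstream reading frames under normal conditions, is translated more, and the ATF4 protein activates genes of amino acid supply, redox defence and feedback control. ATF4 is therefore controlled to a large part at translation, which RNA-seq of total RNA does not measure.

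ATF4 binds as a dimer, often with a C/EBP protein, to a composite element that can be written TGATGNAA. Of the 10 genes, 9 had at least 1 RefSeq promoter window on GRCh38.p14 (250 bases before to 50 bases after an annotated start) and INHBE had none. The element, searched on both strands, was found near ATF3, ASNS and CHAC1, so 3 of these 9 genes (33.3%) had a match, as compared to 4.46% of all 27305 genes with a window and 3.62% of all 35116 windows. Among other ATF4 targets, listed from general knowledge with earlier results of these data known, it was found for 15 of 39 genes (38.5%). Among p53 targets it was found for 0 of 12, too few genes to compare with 4.46%. The members and the other targets were listed as known ATF4 targets, so nothing is read from their shares. The palindrome TGACGTCA, the cAMP response element bound by many factors of the same family, was found in 0 of the 9 genes, in 1 of the 39 other targets and in 2.25% of all genes with a window. A match describes the letters in a window and does not show binding, and the windows of ATF4, DDIT3, DDIT4, TRIB3, SESN2 and STC2 held neither string. The stretches around the 3 matches, with that of the alanyl-tRNA synthetase gene AARS1 for comparison, are given 5′ to 3′ on the strand of the gene, with the element in capitals.
ATF3, chr1:212565186-212565253, + strand: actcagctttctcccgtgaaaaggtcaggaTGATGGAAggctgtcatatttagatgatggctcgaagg
ASNS, chr7:97872458-97872487, - strand: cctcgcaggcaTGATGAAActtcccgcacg
CHAC1, chr15:40953251-40953280, + strand: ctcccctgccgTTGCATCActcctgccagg
AARS1, chr16:70289675-70289704, - strand: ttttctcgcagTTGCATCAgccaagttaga
Distances are from the RefSeq start of the window that held the match, which is not the outermost GENCODE start given for a gene further on. The element began 191 bases before position 212565407 in ATF3 and 68 bases before position 97872408 in ASNS, on the gene's strand. In CHAC1 and AARS1 it read on the opposite strand, 209 bases before position 40953471 and 187 bases before position 70289506, and the same 8 letters, TTGCATCA, stood in both. The stretches of ASNS, CHAC1 and AARS1 overlap an exon annotated in GENCODE 44, and that of ATF3 does not.

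Total counts ranged from 7118302 to 18726967 per library. In 14 libraries 1.87 to 8.18% of the counts lay on 10 ribosomal DNA genes and in the other 8 only 0.0162 to 0.0802%, and all 7 FWatb libraries were in the first set, as were 2 of 4 PBS, 4 of 7 FWctl and 1 of 4 ATB libraries. FWctl replicate 1 stood apart from its group: in a principal component analysis of 500 genes of high variance it lay at 8.74 on the first axis, the other 6 FWctl libraries at 34.45 to 38.92 and all 15 libraries of the other groups at -17.71 to -12.63. It was left out of the fit and is given separately below. Of 10 epithelial markers, 9 had a mean of at least 1 CPM in PBS (CPM being the count scaled to library size and composition), and CDX1 stayed under 1 CPM in every library. The summed level of 9 markers of other cell types was 23.6 to 27.7 CPM in PBS, 8.34 to 12.9 CPM in FWctl, 17.9 to 23.2 CPM in FWatb and 28.1 to 35.5 CPM in ATB, with PTPRC, CD3E, COL1A2 and DES under 1 CPM throughout. The list did not move one way: in FWctl against PBS the fibroblast collagen gene COL1A1 (log2 fold change -2.86), the pericyte receptor gene PDGFRB (-1.96) and the endothelial gene PECAM1 (a mean of 2.38 CPM against 4.97) fell. VWF (3.43 CPM against 0.858) and ITGAM (0.791 CPM against 0.0529), both named after their values were seen, rose. In FWatb against FWctl COL1A1 (2.74, SE 0.20), PDGFRB (1.24, SE 0.14) and PECAM1 (1.16, SE 0.17) rose, with adjusted p of 3.44e-15, 4.74e-10 and 1.71e-07 by edgeR's quasi-likelihood test, and VWF (-1.67) and ITGAM (-1.63) fell. COL1A1, PDGFRB and PECAM1 were named for their large difference in this comparison, so their p-values are a description. The part of the marker genes in the results was not tested. In these bulk samples, fewer responding cells and less RNA per responding cell cannot be told apart, and since nothing states that the PBS or ATB samples were separate experiments, p-values measure only the spread between these samples.

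All 10 genes were higher in FWctl than in PBS, and in all 10 the 6 FWctl libraries did not overlap with the 4 PBS libraries. INHBE, CHAC1, ASNS and DDIT4 stood at more than 10 times their PBS level, SESN2, STC2 and ATF3 at 3 to 5 times, and DDIT3, ATF4 and TRIB3 at less than 2 times. At an adjusted p under 0.05, 24.3% of all genes tested were higher in FWctl than in PBS and 46.4% differed in either direction, while 17.8% were higher without overlap, so nothing is read from the members' own counts. The median log2 fold change was 2.20 for the 10 genes and 0.02 for all genes tested. In FWatb and ATB the 10 genes lay close to PBS, with medians of -0.01 and -0.15.

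**Figure D1:**
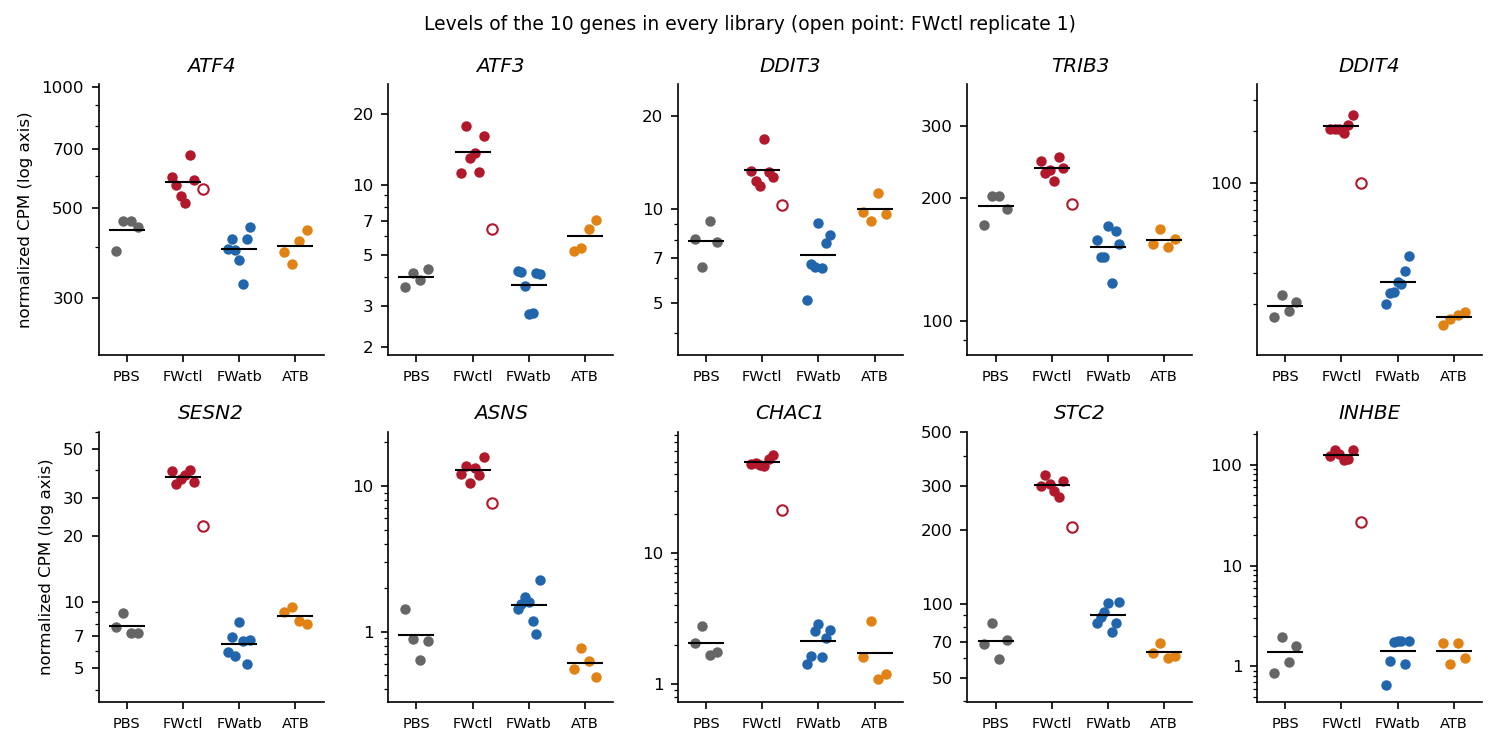
Levels of the 10 genes in normalized CPM (log axis, a separate range for each gene) in each PBS, FWctl, FWatb and ATB library, with lines at the group means. In every panel the 6 filled FWctl points lie above all points of the other 3 groups, and the open point, FWctl replicate 1, lies below the other FWctl points in all panels but ATF4.

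INHBE (chr12:57452323-57459280) encodes the inhibin beta E chain, a secreted factor of the TGF-beta superfamily made mainly in liver and known to be induced under endoplasmic reticulum stress. Its level in the 4 PBS libraries was 0.870, 1.98, 1.10 and 1.60 CPM. In the 6 FWctl libraries it was 123, 139, 127, 110, 113 and 141 CPM. In the 7 FWatb libraries it ranged from 0.661 to 1.80 CPM with a median of 1.74 CPM, and in the 4 ATB libraries it was 1.72, 1.07, 1.72 and 1.20 CPM. FWctl thus stood apart from the other 3 groups, which overlapped with each other. The fitted log2 fold change was 6.52 (SE 0.15, 91.5-fold) for FWctl against PBS, 0.09 (SE 0.24) for FWatb and 0.12 (SE 0.25) for ATB. In FWatb against FWctl it was -6.43 (SE 0.12).

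CHAC1 (chr15:40952962-40956512) encodes a gamma-glutamylcyclotransferase that degrades glutathione. PBS libraries gave 2.06, 2.78, 1.68 and 1.76 CPM and the 6 FWctl libraries 47.7, 49.1, 46.7, 46.3, 51.9 and 56.3 CPM. FWatb libraries lay between 1.42 and 2.88 CPM with a median of 2.25 CPM, and ATB libraries were at 1.61, 3.06, 1.09 and 1.20 CPM. The PBS, FWatb and ATB ranges overlapped, and no FWctl library came near them. Against PBS, the log2 fold change was 4.63 (SE 0.15, 24.8-fold) in FWctl, 0.10 (SE 0.21) in FWatb and -0.39 (SE 0.24) in ATB.

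ASNS (chr7:97851677-97872542), asparagine synthetase, is the classical amino acid response gene of the pathway. It was at 1.42, 0.892, 0.637 and 0.855 CPM in PBS and at 12.0, 13.6, 10.5, 13.3, 11.9 and 15.7 CPM in FWctl. FWatb gave 0.963 to 2.27 CPM with a median of 1.55 CPM, partly above PBS, and ATB gave 0.555, 0.766, 0.632 and 0.489 CPM, below all FWatb libraries. The log2 fold change against PBS was 3.78 (SE 0.19, 13.7-fold) in FWctl, 0.74 (SE 0.24) in FWatb and -0.66 (SE 0.32) in ATB. In GENCODE 44, 2415 of the 4896 exonic bases of ASNS (49.3%) are shared with a long non-coding RNA gene on the same strand, which itself had 0 to 13 counts per library. Reads in the shared stretch may have been left uncounted, so the ASNS level is uncertain, and its counts in PBS and ATB were only 5 to 18 per library.

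DDIT4 and SESN2 encode proteins that restrain the growth kinase mTORC1 under stress. DDIT4 (chr10:72273919-72276036) was at 16.8, 22.4, 18.3 and 20.4 CPM in PBS. It was at 203, 205, 204, 194, 216 and 246 CPM in FWctl, a log2 fold change of 3.44 (SE 0.12, 10.9-fold). In FWatb it lay between 20.1 and 37.9 CPM with a median of 26.2 CPM, and in ATB between 15.2 and 18.0 CPM, so the FWatb libraries lay above all ATB libraries and partly above PBS. SESN2 (chr1:28259518-28282491) was at 7.75, 8.92, 7.24 and 7.21 CPM in PBS and at 39.8, 34.5, 36.4, 38.2, 40.0 and 35.5 CPM in FWctl, a log2 fold change of 2.28 (SE 0.10, 4.85-fold). In contrast to DDIT4, its FWatb level (5.24 to 8.15 CPM) reached below PBS, with a log2 fold change of -0.25 (SE 0.11).

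STC2 (chr5:173314723-173328447) encodes stanniocalcin 2, a secreted glycoprotein. It was at 68.2, 83.1, 59.4 and 70.9 CPM in PBS, at 302, 334, 306, 288, 273 and 317 CPM in FWctl, and at 62.9, 69.1, 60.2 and 61.0 CPM in ATB. The 7 FWatb libraries had 76.7 to 102 CPM with a median of 88.2 CPM, all above ATB and 6 of the 7 above every PBS library. The log2 fold change against PBS was 2.11 (SE 0.09) in FWctl, 0.35 (SE 0.08) in FWatb and -0.15 (SE 0.09) in ATB.

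The transcription factors of the pathway were higher by less. ATF4 itself (chr22:39519695-39522683) was at 392, 464, 465 and 450 CPM in PBS and at 599, 572, 536, 516, 676 and 586 CPM in FWctl. The groups did not overlap, but the log2 fold change was only 0.39 (SE 0.09, 1.31-fold). FWatb (324 to 450 CPM, median 397) and ATB (390, 364, 414 and 441 CPM) overlapped with PBS. ATF3 (chr1:212565334-212620777), a stress-induced repressor, was at 3.64, 4.16, 3.88 and 4.33 CPM in PBS and at 11.2, 17.9, 13.0, 13.6, 11.3 and 16.1 CPM in FWctl, a log2 fold change of 1.79 (SE 0.15, 3.47-fold). It was at 2.78 to 4.25 CPM in FWatb and at 5.16, 5.36, 6.43 and 7.06 CPM in ATB, so that the ATB libraries lay above both PBS and FWatb without overlap. DDIT3 (chr12:57516588-57521737), which encodes the pro-apoptotic factor CHOP, was at 8.06, 6.54, 9.15 and 7.85 CPM in PBS. It was at 13.3, 12.3, 11.9, 16.8, 13.2 and 12.7 CPM in FWctl (log2 fold change 0.73, SE 0.12), at 5.10 to 9.05 CPM in FWatb and at 9.19 to 11.3 CPM in ATB, where it again lay just above the PBS range.

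TRIB3 (chr20:362835-397559), a pseudokinase that feeds back on ATF4 and CHOP, differed least between FWctl and PBS. It was at 172, 203, 203 and 188 CPM in PBS and at 246, 230, 234, 221, 253 and 237 CPM in FWctl, a log2 fold change of 0.31 (SE 0.08, 1.24-fold). It was the one member that lay below PBS without overlap in both other exposures, with 124 to 171 CPM in FWatb and 155, 168, 152 and 159 CPM in ATB. Its log2 fold change against PBS was -0.34 (SE 0.07) in FWatb and -0.27 (SE 0.08) in ATB. DDIT3 shares 355 of its 1307 exonic bases (27.2%) with the methionyl-tRNA synthetase gene MARS1 on the opposite strand, which had 539 to 7768 counts per library against 54 to 237 for DDIT3, and INHBE shares 499 of 3046 (16.4%) with an antisense RNA of 0 to 41 counts. Whether the counting used strand is not given in the sources used here, nor whether reads in a shared stretch were counted or left out. DDIT3 is uncertain to that extent. MARS1 was higher in FWctl than in PBS as well (log2 fold change 2.20, SE 0.09), the same direction as DDIT3. The part of MARS1 reads in the DDIT3 counts was not tested.

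**Figure D2:**
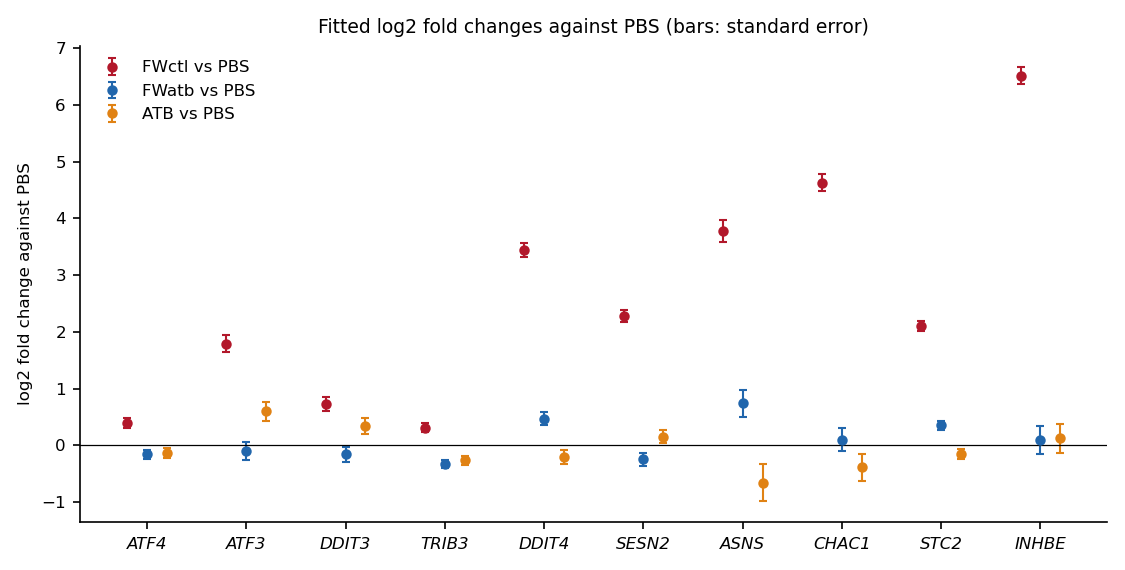
Fitted log2 fold changes of the 10 genes against PBS (y axis, points with standard errors) for FWctl, FWatb and ATB, which share the 4 PBS libraries. The FWctl points run from 0.31 (TRIB3) to 6.52 (INHBE), while the FWatb points lie between -0.34 and 0.74 and the ATB points between -0.66 and 0.60.

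Expressed per length of the annotated exons, the order of the 10 genes changed with FWctl. In PBS the highest mean level was that of ATF4 with 169 CPM per kilobase, followed by TRIB3 with 58.2, STC2 with 13.9, DDIT4 with 9.20, DDIT3 with 6.05 and SESN2 with 2.25 CPM per kilobase. CHAC1 (1.01) and ATF3 (1.00 CPM per kilobase) overlapped in their libraries, and INHBE (0.456) and ASNS (0.194 CPM per kilobase) came last and overlapped slightly. In FWctl ATF4 was still the highest with 222 CPM per kilobase, DDIT4 had moved to the second place with 99.8, and INHBE to the fifth with 41.2 CPM per kilobase, behind TRIB3 (72.0) and STC2 (60.0) and ahead of CHAC1 (24.2). SESN2 (10.8) and DDIT3 (10.2 CPM per kilobase) overlapped there, as did ATF3 (3.46) and ASNS (2.62 CPM per kilobase). The length of ASNS includes the 49.3% of its exonic bases that are shared with a long non-coding RNA gene. Reads there may have been left uncounted, so the place of ASNS in both orders is uncertain.

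The spread among the 6 FWctl libraries was smallest for TRIB3 (coefficient of variation 4.80%), SESN2 (6.06%), STC2 (7.11%), CHAC1 (7.70%) and DDIT4 (8.75%) and largest for ATF3 (19.3%). For CHAC1 and INHBE it was 24.1% and 36.0% in PBS, where they had 11 to 33 counts per library, and 7.70% and 10.3% in FWctl.

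FWctl replicate 1 lay between PBS and the rest of its group for 8 of the 10 genes. It had 26.8 CPM of INHBE, 21.3 CPM of CHAC1, 100 CPM of DDIT4, 7.60 CPM of ASNS, 22.4 CPM of SESN2, 206 CPM of STC2, 6.46 CPM of ATF3 and 10.3 CPM of DDIT3, each above all PBS libraries and below all other FWctl libraries. For INHBE this was 19.3 times the PBS mean, and the mean of the other FWctl libraries was 4.68 times higher still. ATF4, at 557 CPM, lay within the range of the other FWctl libraries, and TRIB3, at 194 CPM, within the range of PBS. On the log2 scale the replicate had covered 6.41% (TRIB3) to 86.3% (ATF4) of the distance from the PBS mean to the mean of the other FWctl libraries, and 65.7 to 79.9% for INHBE, SESN2, DDIT4, CHAC1, STC2 and ASNS. With this library included in the fit, the log2 fold change of FWctl against PBS was 6.31 for INHBE, 4.47 for CHAC1 and 0.24 for TRIB3.

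**Figure D3:**
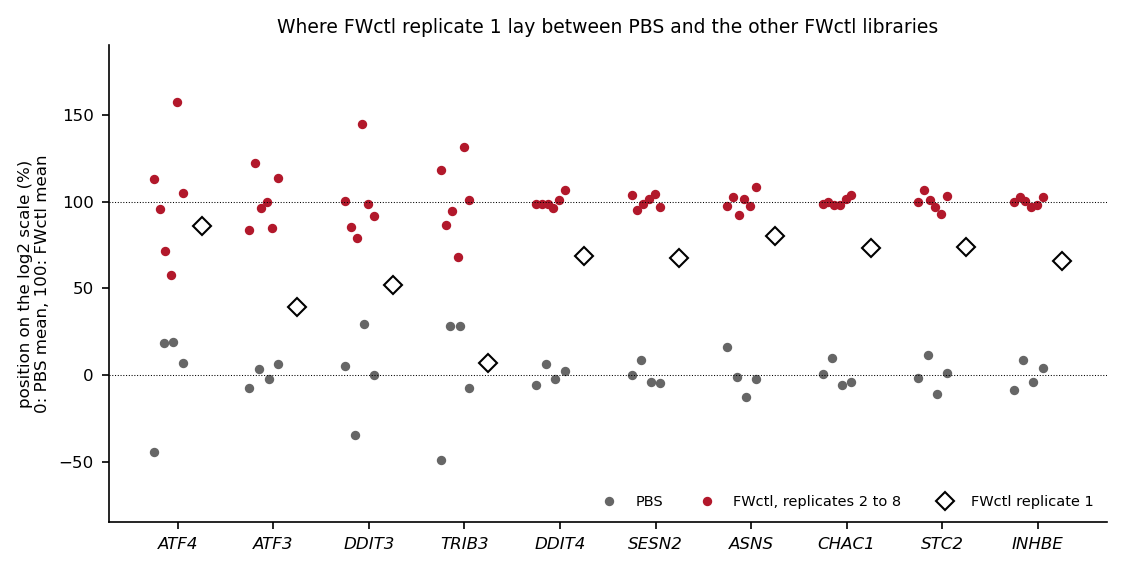
Position of FWctl replicate 1 (diamonds) and of the single PBS and other FWctl libraries (points) on the log2 scale, in percent of the distance from the PBS mean (0) to the mean of the other 6 FWctl libraries (100). The diamonds lie at 65.7 to 79.9% for the 6 genes on the right, at 6.41% for TRIB3 and at 86.3% for ATF4.

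The level of the 10 genes in FWatb was compared with that in FWctl, for which the FW came from the same mice before the cocktail. The antibiotic treatment, the time of sampling and any cocktail carried in the faeces cannot be told apart in this comparison. All 10 genes were lower in FWatb and none overlapped between the 7 FWatb and the 6 FWctl libraries, as compared to 13.3% of all genes tested that were lower without overlap. By the rule of an adjusted p under 0.05 together with a more than 2-fold difference, 7 of 10 were lower, against 6.60% of all genes in this direction and 12.7% in either. ATF4 (-0.55, SE 0.07), TRIB3 (-0.64, SE 0.07) and DDIT3 (-0.89, SE 0.11) were under the fold threshold. The other log2 fold changes were -1.76 (SE 0.07) for STC2, -1.90 (SE 0.13) for ATF3, -2.53 (SE 0.09) for SESN2, -2.97 (SE 0.09) for DDIT4, -3.04 (SE 0.15) for ASNS and -4.53 (SE 0.13) for CHAC1, beside that of INHBE given above. The FWctl libraries are the same as in the comparison with PBS that went into choosing the genes, so nothing is read from these counts. Of all genes called in this comparison 48.1% were higher, and 58.1% with library size alone as the scaling. Between samples of the same number, which the labels give in both groups, the log2 ratio of INHBE was -6.76 to -5.95 for the 6 numbers fitted and -5.34 for number 1.

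In FWatb against PBS, 4 of the 10 genes had an adjusted p under 0.05, beside 9.99% of all genes tested, and as the genes were chosen over all 4 conditions nothing is read from this count. They were DDIT4 (0.47, SE 0.11), ASNS and STC2 on the higher side and TRIB3 on the lower. In the libraries with a high share of ribosomal DNA alone (2 PBS and 7 FWatb), 0 of the 10 passed by edgeR (4 at an unadjusted p under 0.05), with log2 fold changes of 0.46 for DDIT4, 0.39 for ASNS, 0.24 for STC2 and -0.31 for TRIB3. Of all called genes 60.5% were higher, and 83.6% with library size alone as the scaling. In ATB against PBS 0 of the 10 genes were called by edgeR, beside 0.285% (58) of all genes tested, and nothing is read from this count either. At an unadjusted p under 0.05 the number was 4 by edgeR, 2 in each direction, and DESeq2 called 1, TRIB3, lower. ATF3 had the largest difference upwards, 0.60 (SE 0.17), and ASNS the largest downwards, given above. CHAC1, ASNS and INHBE had 5 to 31 counts per ATB library and standard errors of 0.24 to 0.32.

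Between FWatb and ATB, the cocktail given to the mice and to the cells, respectively, DDIT4 (0.69, SE 0.11), ASNS (1.40, SE 0.27) and STC2 (0.51, SE 0.08) had higher and ATF3 (-0.71, SE 0.15), DDIT3 (-0.50, SE 0.12) and SESN2 (-0.40, SE 0.11) lower levels in FWatb. These 6 genes had an adjusted p under 0.05, beside 14.5% of all genes tested, and again this is a description from which nothing is read. Of all called genes 52.7% were higher, and 78.6% with library size alone as the scaling. There ATF4 and TRIB3, at -0.02 and -0.06, came to 0.07 and 0.03. This comparison shares its FWatb libraries with those above, and 1 of the 4 ATB libraries but all FWatb libraries were in the set with a high share of ribosomal DNA.

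The other genes of the pathway were taken from 4 lists of ATF4 targets known from other systems. The lists were drawn up with earlier results of these data known, so their counts are a description from which nothing is read. Most genes named from a list below were picked for their large difference between FWatb and FWctl. Their p-values for that comparison are therefore a description too. Of 51 genes 50 were tested. SLC7A3 did not pass the filter. In FWctl against PBS 49 of the 50 rose and 0 fell (edgeR, beside the 24.3% given above), with a median log2 fold change of 1.81. The exception was ATF5, another factor of the family (0.17, SE 0.20, adjusted p = 0.514). In FWatb against FWctl 39 of 50 fell and 0 rose, beside 6.60% of all genes that were lower, with a median of -1.48. In FWatb against PBS 21 rose and 2 fell, beside 9.99% of all genes in either direction, with a median of 0.18. In the libraries with a high share of ribosomal DNA alone, 12 of 49 rose and 1 fell. In ATB against PBS 1 rose (MAP1LC3B, 0.59) and 1 fell (VEGFA, -0.38), both named after their values were seen.

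In the serine, glycine and one-carbon list all 10 genes rose in FWctl against PBS and 8 fell in FWatb against FWctl. ALDH1L2, a mitochondrial folate enzyme, went from a mean of 1.97 CPM in PBS to 48.6 CPM in FWctl and 2.58 CPM in FWatb (FWatb against FWctl -4.25, SE 0.12, adjusted p = 2e-28). PCK2, the mitochondrial phosphoenolpyruvate carboxykinase, was at 29.3, 321 and 31.1 CPM in the same order (-3.37, SE 0.08, adjusted p = 1.47e-30). PSAT1 of serine synthesis (-2.25, SE 0.08, adjusted p = 1.59e-24) and SHMT2, which passes one-carbon units from serine to folate (-2.12, SE 0.07, adjusted p = 6.82e-27), followed. In FWatb against PBS 5 of the 10 rose, PSAT1 (0.40) and SHMT2 (0.32) among them.

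In the amino acid transport list all 9 genes tested rose in FWctl and 8 fell in FWatb against FWctl. SLC7A11, the cystine and glutamate exchanger, was at 20.8 CPM in PBS, 476 CPM in FWctl and 34.0 CPM in FWatb (FWatb against FWctl -3.80, SE 0.12, adjusted p = 2.83e-27). The neutral amino acid transporter SLC1A4 (-2.60, SE 0.08, adjusted p = 2.4e-27), SLC3A2, the heavy chain partner of SLC7A11 (-2.38, SE 0.08, adjusted p = 9.81e-27), and the glycine transporter SLC6A9 (-2.31, SE 0.10, adjusted p = 2.24e-22) came next. SLC7A11 was also higher in FWatb than in PBS (0.74, SE 0.14).

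All 12 aminoacyl-tRNA synthetase genes, which charge tRNAs with their amino acids, rose in FWctl within a narrow range of log2 fold change from 1.09 to 2.20. In FWatb against FWctl 11 of 12 fell, led by MARS1 (-1.80, SE 0.07, adjusted p = 2.17e-23), YARS1 (-1.69, SE 0.08, adjusted p = 7.7e-21), AARS1 (-1.61, SE 0.07, adjusted p = 2.47e-21) and LARS1 (-1.54, SE 0.06, adjusted p = 1.31e-24). In FWatb against PBS 10 of 12 rose at an adjusted p under 0.05, by at most 0.47. Among the 4 lists this was the largest share called higher (83.3%).

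Of 19 stress and signalling targets 18 rose in FWctl against PBS and 12 fell in FWatb against FWctl. ADM2, a peptide hormone of the calcitonin family, was at 5.36 CPM in PBS, 30.9 CPM in FWctl and 4.84 CPM in FWatb (FWatb against FWctl -2.68, SE 0.10, adjusted p = 7.18e-24). The lipoprotein receptor gene VLDLR (-2.28, SE 0.12, adjusted p = 2.09e-19), the translation repressor gene EIF4EBP1 (-2.26, SE 0.09, adjusted p = 4.12e-23) and the autophagy receptor gene SQSTM1 (-2.17, SE 0.12, adjusted p = 2.86e-19) had the next largest differences. FGF21, a hormone gene singled out after its values were seen, had 0 counts in all 4 PBS libraries and 81 counts in the 6 FWctl libraries, at least 22.9-fold higher against a floor of 3 counts over the PBS group. With it at that bound the medians of this list (1.52) and of all 50 targets were the same.

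**Figure D4:**
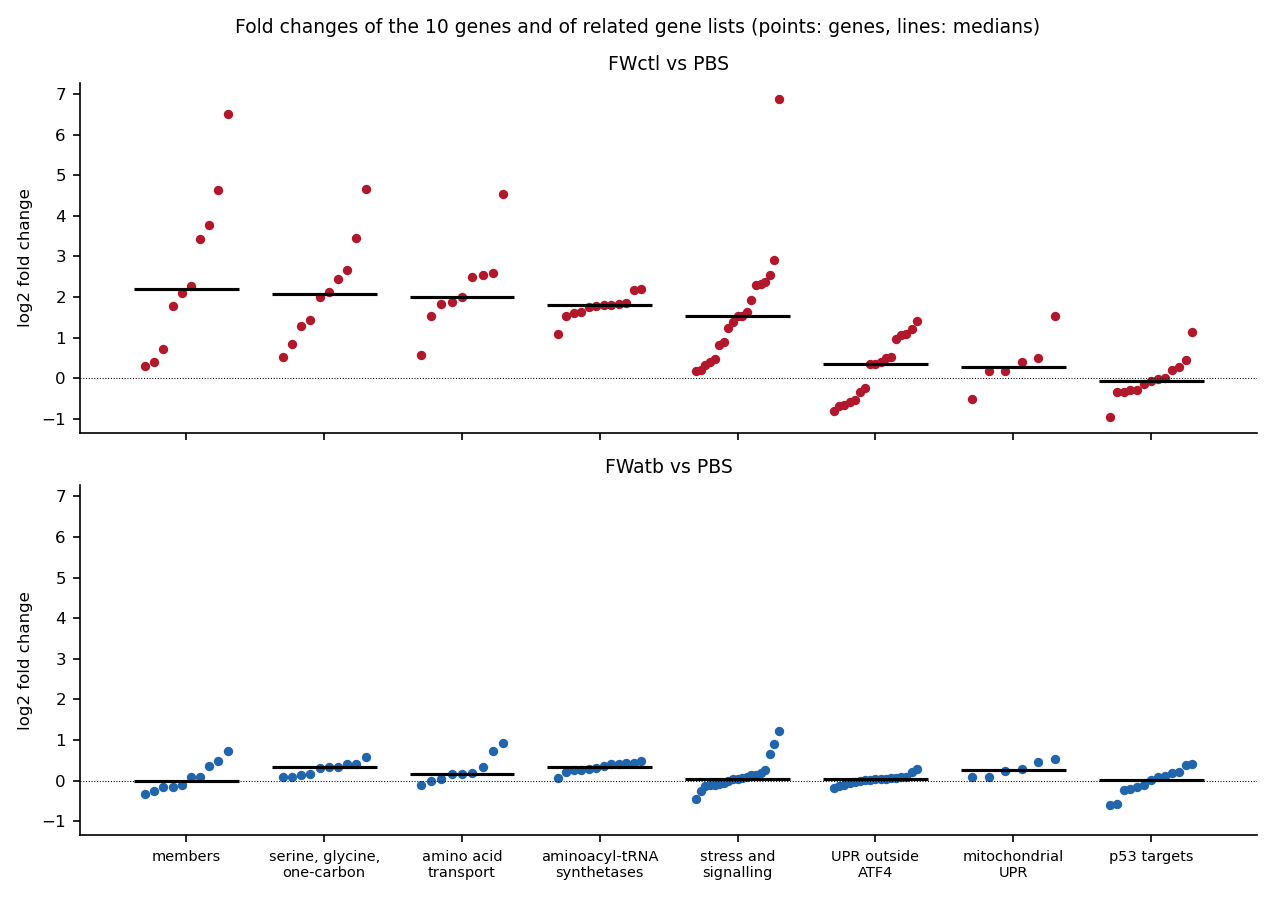
Fitted log2 fold changes (y axis) in FWctl against PBS (upper panel) and FWatb against PBS (lower panel) of the 10 genes, the 4 lists of other ATF4 targets and 3 lists of related pathways, 1 point a gene, with lines at the medians; UPR is the unfolded protein response. In the upper panel the 4 target lists lie wholly above 0 with medians of 1.52 to 2.07 and the last 3 lists lie on both sides of it, and the highest point of the stress list is FGF21, whose fitted value is no bound.

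Among the 4 kinase genes no absolute log2 fold change exceeded 0.22 in FWctl against PBS. EIF2AK1 (-0.18, SE 0.07, adjusted p = 0.0272) and EIF2AK2 (-0.22, SE 0.07, adjusted p = 0.00764) fell and EIF2AK4 rose (0.21, SE 0.08, adjusted p = 0.0251) in FWctl against PBS, while EIF2AK3 was at -0.09 (SE 0.07, adjusted p = 0.306). PPP1R15A (GADD34), the inducible subunit of the eIF2alpha phosphatase and itself an ATF4 target, rose in FWctl (1.23, SE 0.10, adjusted p = 6.72e-14) and fell in FWatb against FWctl (-1.16, SE 0.08, adjusted p = 2.02e-15). Its constitutive counterpart PPP1R15B rose by less (0.42, SE 0.07, adjusted p = 6.22e-06). This list of 19 genes also holds the subunits of eIF2 and of its exchange factor eIF2B. Of all 19, 11 rose and 5 fell in FWctl against PBS (84.2%, beside 46.4% of all genes), with a median of 0.41. In FWatb against FWctl 1 (PPP1R15A) fell (5.26%, beside 12.7% of all genes in either direction).

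The unfolded protein response genes outside the ATF4 lists were split. In FWctl against PBS 10 of 17 rose and 7 fell (100%, beside 46.4% of all genes), with a median of 0.36. In FWatb against FWctl 4 fell and 1 rose (29.4%, beside 12.7% of all genes). The 4 that fell were XBP1, the transcription factor of the IRE1 branch (-1.45, SE 0.06, adjusted p = 4.28e-22), the co-chaperone gene DNAJB9 (-1.40, SE 0.10, adjusted p = 7.42e-16), HERPUD1 of endoplasmic reticulum associated degradation (-1.20, SE 0.07, adjusted p = 3.11e-18) and ERN1, which encodes IRE1 (-1.13, SE 0.09, adjusted p = 6.38e-14). The lumenal chaperone genes HSP90B1 (-0.59) and CALR (-0.69) and the secreted factor MANF (-0.67), named after their values were seen, fell in FWctl against PBS, and HSPA5 (BiP), a common marker of the response also named afterwards, rose by 0.41 (SE 0.11, adjusted p = 0.00164). Of 13 p53 targets tested 3 rose and 4 fell in FWctl against PBS (53.8%, near the 46.4% of all genes) and 0 passed both thresholds in FWatb against FWctl by either edgeR or DESeq2, where 5 had an adjusted p under 0.05 and 7 an unadjusted one by edgeR. Of 6 genes of the mitochondrial unfolded protein response 3 rose and 1 fell in FWctl against PBS (66.7%, beside the same 46.4%). In FWatb against FWctl 0 of them passed both thresholds by either tool, where 2 had an adjusted p under 0.05 and the same number an unadjusted one.

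Of 12 paralogues of the 10 genes tested, 4 rose and 3 fell in FWctl against PBS (58.3%, near the 46.4% of all genes). JDP2, related to ATF3 and itself listed as an ATF4 target, rose (1.54, SE 0.12, adjusted p = 4.1e-14) and fell in FWatb against FWctl (-1.60, SE 0.10, adjusted p = 1.3e-16). STC1, the paralogue of STC2, was instead lower in FWctl (9 counts in 6 libraries) than in PBS (137 counts in 4), 18.0 times at this depth with a counting interval of 9.19 to 40.1 (95%, exact, counting error only). SESN3 (-1.36, SE 0.08, adjusted p = 1.68e-17) and SESN1 (-0.35, SE 0.08, adjusted p = 0.0004), the relatives of SESN2, fell as well. INHBC, the neighbour of INHBE in sequence, had 37 counts in FWctl and 2 in PBS, a ratio of 15.7 (4.04 to 134). CHAC2 (0.86, SE 0.16) and ATF1 (0.39, SE 0.09) rose, and INHA (-0.01, SE 0.41), INHBB (0.23, SE 0.14), ATF2 (-0.11, SE 0.08), ATF5, given above, and ATF7 (0.10, SE 0.21) did not pass the test.

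The genes whose levels ran most like the mean of the 10 genes over the 21 libraries were sought among the 9357 genes whose normalized count averaged at least 100. The 6 most alike were the small GTPase gene RAB25 (Spearman's rho 0.938), the host gene of small nucleolar RNAs SNHG29 (0.926), PIP4P1 (0.910), the endosomal sorting gene TSG101 (0.904), TATDN1 (0.896) and VPS72 (0.892), given without a p since the 21 libraries share 4 conditions. None of the 10 genes reached these values with their own mean, where rho ran from 0.573 (ASNS) to 0.852 (TRIB3). SNHG29 was at means of 291 CPM in PBS, 694 CPM in FWctl, 256 CPM in FWatb and 273 CPM in ATB. RAB25 was at 49.6, 70.9, 44.8 and 48 CPM in the same order. FWctl replicate 1 was not among the 21 libraries. In it RAB25 (46.9 CPM), PIP4P1 and TATDN1 lay below their PBS means, and SNHG29 (361 CPM), TSG101 and VPS72 above theirs.

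Within the sets of libraries that differed in ribosomal DNA, the difference between FWctl and PBS was of like size. The log2 fold change of INHBE was 6.45 in the high set (2 PBS and 4 FWctl libraries) and 6.53 in the low set (2 and 2), that of CHAC1 4.37 and 4.76, that of DDIT4 3.44 and 3.35, that of ATF4 0.41 and 0.31 and that of DDIT3 0.86 and 0.54. For ASNS it was 3.41 and 4.03, the widest gap of the 10 genes.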

How the data were processed

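Total RNA of 22 Caco-2 samples was depleted of ribosomal RNA and sequenced as paired reads by the authors. Per the labels and the study's methods, the authors trimmed reads with Trimmomatic 0.38, aligned them to GRCh38 with HISAT2 2.1.0 and counted them with featureCounts of Subread 2.0.0 on Ensembl 105. The deposited values are raw counts per gene, with no normalization, and the strand setting is not given in the sources used here. No per-sample column was left unused. Of 61487 gene identifiers 61369 were found in GENCODE 44 (GRCh38), which gave symbols, exon lengths and overlaps. Promoter windows and ribosomal DNA units came from RefSeq (GRCh38.p14), and the 10 ribosomal DNA genes are those that overlap these units.

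Counts were scaled by TMM in edgeR 4.0.16 (R 4.3.3) and are given as normalized CPM. One model of the 4 groups in 21 samples was fitted by edgeR's quasi-likelihood method, and p-values were adjusted (Benjamini-Hochberg) over the 20373 genes whose count exceeded 5 in 3 or more samples. A gene was called at an adjusted p under 0.05, and between FWatb and FWctl also at an absolute log2 fold change above 1, the filter and thresholds being those of the study. The study's methods state that 1 FWctl sample was left out without naming it, and FWctl replicate 1 was taken for it from the principal component given above. The script was tested on simulated data. Replicates differed by more than counting noise (chi-square per degree of freedom 3.58 to 118 over 54 pairs), so none was counted as the same library sequenced again. This cannot show that the replicates were separate experiments. Positions between PBS and FWctl used log2(CPM + 0.1).

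The members and all lists were chosen with earlier results of these data known. Named genes are all 10 members, the 4 kinases, PPP1R15A, PPP1R15B, every tested paralogue, and from each list up to 4 genes called between FWatb and FWctl with the largest absolute log2 fold change and a mean normalized count of at least 50. Alternatives were DESeq2 1.42.0, other scalings, filters, sample sets, thresholds, a replicate block and each replicate left out. One gene of the marker list of other cell types is not reported here.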

Additional observations from a re-analysis of the deposited data

Results flagged for a closer look

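DDIT3 in FWctl replicate 6 was at 16.8 CPM while the other 5 FWctl libraries lay at 11.9 to 13.3 CPM, a gap of 0.713 of the group's range. It was the only library that stood so far from its group in 40 groups looked at (10 genes in 4 groups), where chance flags about 1 in 20 groups.

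FWctl replicate 1, which took no part in the fit, had 9 of the 10 genes above the range of the 4 PBS libraries. These were ATF4 with 557 CPM, ATF3 with 6.46 CPM, DDIT3 with 10.3 CPM, DDIT4 with 100 CPM, CHAC1 with 21.3 CPM, ASNS with 7.60 CPM, SESN2 with 22.4 CPM, STC2 with 206 CPM and INHBE with 26.8 CPM.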

How the results depend on the processing

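Of 1000 log2 fold changes of the members under the alternatives, 994 moved by less than 1 SD between replicates, 6 by more and 0 called values changed sign. In FWctl against PBS 10 of 10 members were called when any replicate was left out, and 7 to 10 under the other alternatives. In FWatb against FWctl the number was 7 with any replicate left out and also with a replicate block, in which 38 of 49 other ATF4 targets fell, so the block changed no call of a member. Deviations of same-numbered FWctl and FWatb samples correlated at -0.004 to 0.119 (6 pairs, mean 0.044) and of differently numbered ones at -0.183 to 0.060 (mean -0.007). Such correlations cannot exclude that the numbers pair the samples by mouse. The study compared FWctl and FWatb by a paired t-test for ABCB1 and CAR mRNA. The labels do not say that a number is a mouse, so the main fit had no block. Without the fold threshold in FWatb against FWctl, 10 members and 49 other targets were called.

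The calls in FWatb against PBS (4 members, 23 other targets) depended on the samples. They came to 2 and 15 with all 22 samples, to 0 and 13 in the libraries with a high share of ribosomal DNA, and to 0 and 0 with an absolute log2 fold change above 1. In FWatb against ATB the same fold threshold left 1 member of 6 and 2 other targets of 28. In ATB against PBS DESeq2 called 1 member. The 2 other targets called there came to 1 with library size alone, with only the 2 groups compared and with the library set as a term. They came to 0 with all 22 samples, in the libraries with a low share of ribosomal DNA (chosen after seeing the data) and with the fold threshold. Leaving out a replicate gave 0 to 2, being 0 without PBS replicate 1 or 2 or ATB replicate 3 and 1 without PBS replicate 3 or ATB replicate 1 or 4. For these counts the cause was not tested. Depth limits the members with few counts, of which ASNS had 5 to 18 in each PBS and ATB library.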
